A study of Solanum lycopersicum with 6 samples.

Results

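Glutathione S-transferase (GST) genes were examined in tomato (Solanum lycopersicum) roots, across 3 libraries of the slszp1 mutant (slszp1 below) and 3 of wild type. Members are the genes whose description in the deposited expression table holds "glutathione S-transferase" or "glutathione transferase" in any letter case. This gave 92 of 35768 genes. All plants were 20 days old and were kept in 60 µM aluminium (Al) at pH 4.7, so both genotypes carry the Al and acid treatment and each difference is between genotypes under Al. The labels call the libraries biological replicates. They do not give the mutant allele, the number of independent lines or the plants behind a library. Roots without Al were not analysed here.

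GSTs join the thiol peptide glutathione to reactive small molecules, and some also reduce lipid peroxides. In plants the tau and phi classes are large and often rise under stress, auxin or xenobiotics, the zeta class acts in tyrosine breakdown, and microsomal GSTs are membrane proteins of separate origin. Glutathione is made from amino acids by glutamate-cysteine ligase and then glutathione synthetase, is kept reduced by glutathione reductase, and its conjugates are moved into the vacuole by ABC transporters of the C family. SZP1 is known as a zinc finger protein that interacts with STOP1, a factor needed for Al and proton tolerance, and the study compared root transcripts of the mutant with those of wild type under Al.

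Levels are in TPM, which the values were taken to be, a unit scaled by transcript length and to a fixed total per library. Changes are differences in log2(TPM + 1), mutant minus wild type, with the standard error written SE, and adding 1 makes changes of weakly expressed genes look smaller. Rose and fell are used where the Benjamini-Hochberg adjusted p of limma was under 0.05 over the 17702 genes that reached 1 TPM in 3 or more libraries. Replicates are numbered 1, 2 and 3, and values are given in that order. The columns summed to 940694 to 974316 TPM and absolute depth is unknown, so no counting error could be given. Of the root marker lists, genes described as Casparian strip membrane proteins summed to 36.98 to 39.46 TPM in slszp1 and 32.11 to 37.75 TPM in wild type. Root hair genes summed to 163.5 to 193.7 and 152.2 to 213.2 TPM, and root cap genes to 1.69 to 6.36 and 3.17 to 5.34 TPM. Nitrate uptake genes summed to 178.7 to 230.5 and 166.7 to 245.8 TPM, with 0 of 4 tested genes higher and 2 lower. Iron uptake genes summed to 4.04 to 5.69 TPM in slszp1 and 50.4 to 106.7 TPM in wild type, with 1 of 2 tested genes higher and 1 lower. Genes described as the RuBisCO small chain, a defining leaf transcript, summed to 0 TPM in slszp1 and to at most 0.06 TPM in wild type. Photosystem genes summed to 535.5 to 584.6 TPM in slszp1 and 340.9 to 375.7 TPM in wild type, with 4 of 20 tested genes higher and 0 lower, while light-harvesting genes summed to 81.86 to 91.69 and 85.04 to 101.7 TPM, with 0 of 14 higher and 2 lower. Genes described as phloem or sieve element proteins summed to 135.1 to 149.7 TPM in slszp1 and 162.8 to 218.5 TPM in wild type, with 3 of 13 tested genes higher and 4 lower. Of the lists for dividing cells, histone H4 genes summed to 952 to 1344 TPM and 1292 to 2111 TPM (0 of 10 higher and 2 lower), and cyclin B genes to 63.59 to 112.2 TPM and 19.53 to 77.78 TPM (0 of 4 higher and 1 lower). The part of these differences in the GST results was not tested. The 3 genes matching the xylem patterns were listed at 0 in every library. In bulk roots, fewer cells of a type and less RNA per cell cannot be told apart.

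GST transcripts changed in both directions. Of the 92 members, 19 were listed at 0 in all libraries, 12 had values too low to test with at most 5.35 TPM in any library, and 61 were tested. Of these 61, 13 fell, 10 rose and 38 did not pass, so 37.7% changed where 19.2% of all tested genes did. By direction, 21.3% of tested members fell against 10.5% of all tested genes, and 16.4% rose against 8.71%. Tested members were more abundant than genes at large, with a median mean level of 47.6 TPM against 13.0 TPM over all tested genes. At a mean of 10 TPM or more, 21 of 48 members (43.8%) and 20.8% of all tested genes changed, and at 100 TPM or more 9 of 22 members (40.9%) and 26.8% of genes. The median change of tested members was -0.14, and that of all tested genes -0.0005. The genotypes' libraries did not overlap in 33 of the 61 tested members. The mutant lay above in 13 of the 61 and below in 20 of the 61. Among all tested genes 38.5% did not overlap, with the mutant above in 18.2% and below in 20.2%. Members that share reads with a near-identical copy are not independent of each other, and their levels are uncertain.

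**Figure D1:**
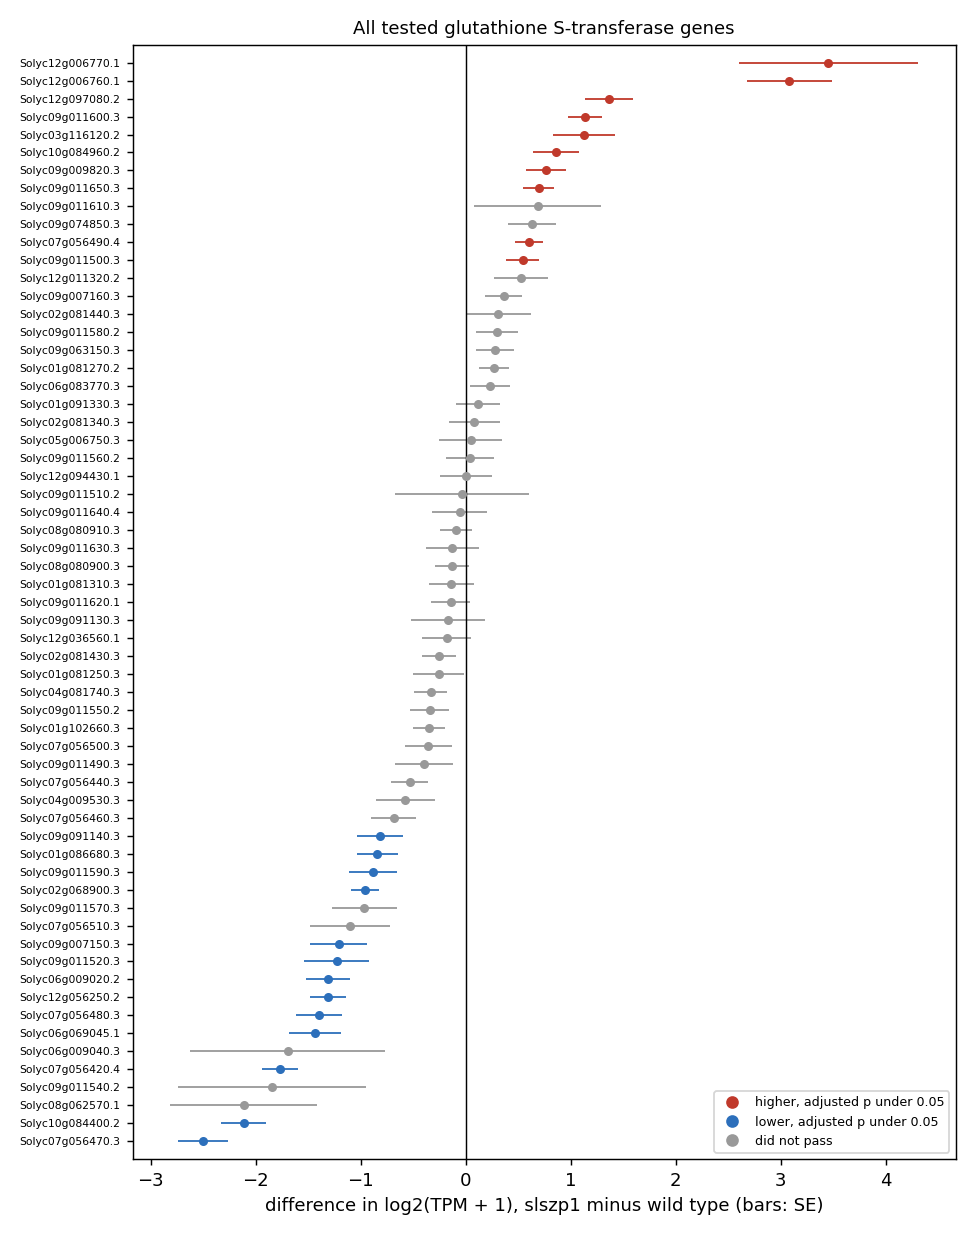
Change in log2(TPM + 1), mutant minus wild type, with SE bars for each of the 61 tested GST genes, ordered from the largest rise to the largest fall; 3 libraries per genotype. The 10 red genes rose, the 13 blue genes fell, and the wide bars belong to genes that differ strongly between libraries of a genotype.

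The deepest fall was in a run of GST genes on chromosome 7. By the tomato naming scheme, in which the digits after Solyc give the chromosome and the rest the order along it, the 10 members from Solyc07g056420.4 to Solyc07g056510.3 stand in consecutive rows of the table. Of the 8 tested, 3 fell and 1 rose, or 37.5% and 12.5% where 10.5% and 8.71% of all tested genes did. Solyc07g056470.3, described as GST-like, held 95.92, 77.4 and 65.08 TPM in slszp1 and 359.64, 619.75 and 406.82 TPM in wild type. Every mutant library was far below every wild type library, and the wild type mean was 5.81-fold that of the mutant, with a change of -2.50 (SE 0.24) and a limma adjusted p of 0.000302. Solyc07g056420.4 held 53.17, 40.76 and 37.36 TPM in slszp1 and 139.06, 171.06 and 141.69 TPM in wild type, which gives a change of -1.77 (SE 0.17, limma adjusted p = 0.000372). It was also lower in every mutant library, 3.44-fold on the means.

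The other gene that fell in this run is the one described as a GST/peroxidase, which names the second activity that some GSTs have. Solyc07g056480.3 held 367.96, 361.91 and 265.79 TPM in slszp1 and 757.66, 1140.14 and 756.42 TPM in wild type, which gives a change of -1.40 (SE 0.22, limma adjusted p = 0.00333). It had rank 3 in abundance among the 92 members. The gene next to it, Solyc07g056490.4, went the other way and rose, with 87.55, 86.48 and 81.22 TPM in slszp1 and 59.61, 51.2 and 56.24 TPM in wild type, which gives a change of 0.60 (SE 0.13, limma adjusted p = 0.0149). These libraries did not overlap either, but the call was lost without mutant replicate 1 or 2 (limma adjusted p = 0.0639 and 0.0609). The remaining tested genes of the run did not pass. Solyc07g056440.3 had 58.6 ± 9.55 TPM (SD, n = 3) in slszp1 and 85.1 ± 12.3 TPM in wild type. Solyc07g056460.3 had 27.8 ± 2.98 and 46.5 ± 14.3 TPM, and Solyc07g056510.3 had 18.0 ± 9.82 and 35.9 ± 3.90 TPM. In these 3 genes the libraries did not overlap and the mutant was lower, with limma adjusted p of 0.0670, 0.0563 and 0.0904. Solyc07g056500.3, described as GST T5, overlapped between genotypes at 255 ± 70.5 and 319 ± 27.1 TPM. The run as a whole summed to 997, 996 and 708 TPM in slszp1 against 1789, 2475 and 1857 TPM in wild type.

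**Figure D2:**
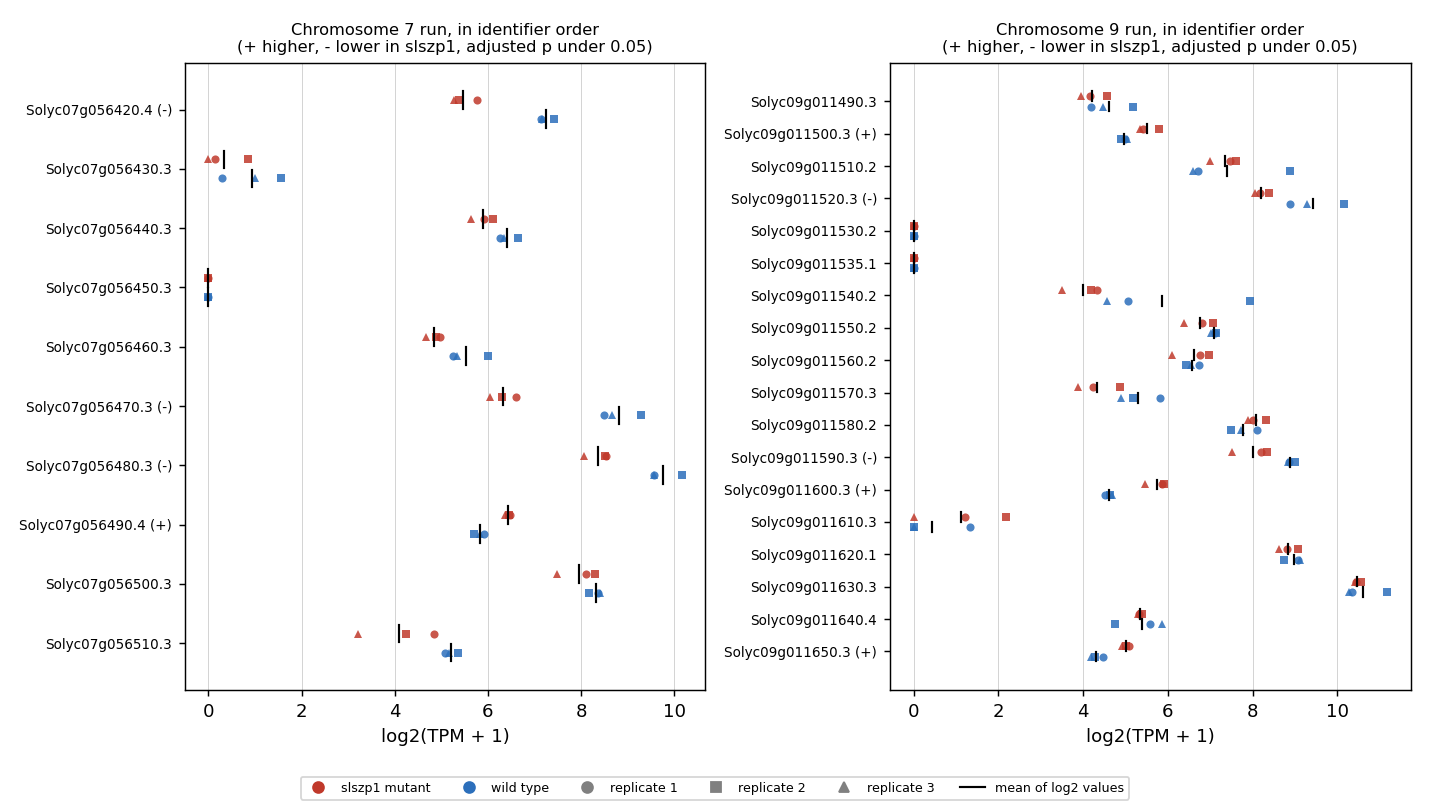
Level in log2(TPM + 1) of each member of the runs on chromosome 7 (10 genes) and chromosome 9 (18 genes), in the order of their identifiers; each point is a library and the black tick the mean of the log2 values of 3 libraries. On chromosome 7 the wild type points lie to the right in most expressed genes, except Solyc07g056490.4. On chromosome 9 Solyc09g011590.3, which fell, stands beside Solyc09g011600.3, which rose.

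A longer run on chromosome 9 held changes in both directions. The 18 members from Solyc09g011490.3 to Solyc09g011650.3 stand in consecutive rows, 16 were tested, 3 rose and 2 fell. These are 18.75% and 12.5% of the tested members of the run, where 8.71% and 10.5% of all tested genes rose and fell. Solyc09g011520.3, GST-like and rank 5 in abundance among all members, held 289.08, 333.55 and 263.78 TPM in slszp1 and 466.69, 1141.05 and 617.64 TPM in wild type. Its libraries did not overlap, wild type replicate 2 was the highest, and the change was -1.23 (SE 0.31, limma adjusted p = 0.0275). This call was lost without mutant replicate 1, 2 or 3 or wild type replicate 3 (limma adjusted p = 0.0797, 0.0583, 0.101 and 0.0594). Solyc09g011590.3, a partly matched model, held 293.12, 320.26 and 180.17 TPM in slszp1 and 461.76, 506.65 and 455.46 TPM in wild type. This gives a change of -0.88 (SE 0.23, limma adjusted p = 0.0273). The gene did not overlap between genotypes, and its call was lost without wild type replicate 1, 2 or 3 (limma adjusted p = 0.0682, 0.0519 and 0.0576) and under median centring (0.0666).

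Directly beside Solyc09g011590.3 stood the rise with the smallest p of the run. Solyc09g011600.3, described only as a GST, held 57.52, 59.07 and 42.91 TPM in slszp1 and 21.72, 23.97 and 24.63 TPM in wild type. The lowest mutant library was well above the highest wild type library, the mutant mean was 2.27-fold that of wild type, and the change was 1.14 (SE 0.16, limma adjusted p = 0.00213). Solyc09g011650.3, at the end of the run, held 32.87, 31.05 and 29.35 TPM in slszp1 and 21.18, 18.39 and 17.08 TPM in wild type, which gives a change of 0.69 (SE 0.15, limma adjusted p = 0.0123; 0.0555 without mutant replicate 1). Solyc09g011500.3 held 41.51, 54.14 and 39.79 TPM against 30.62, 28.9 and 31.56 TPM, a change of 0.55 (SE 0.16, limma adjusted p = 0.0434). Its libraries did not overlap, but its adjusted p was the highest among the 23 members that changed. The call was lost without mutant replicates 1, 2 and 3 (limma adjusted p = 0.0851, 0.159 and 0.0516), without wild type replicates 1, 2 and 3 (0.113, 0.0731 and 0.0826) and under median centring (0.0665).

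The most abundant gene of the chromosome 9 run did not pass. Solyc09g011630.3, described as a putative GST T2 and second in abundance among the members, held 1392.35, 1508.27 and 1353.7 TPM in slszp1 and 1301.27, 2296.55 and 1238.19 TPM in wild type. The genotypes overlapped, with wild type replicate 2 above all other libraries, at a change of -0.13 (SE 0.25, limma adjusted p = 0.773) that was positive without that replicate. Wild type replicate 2 stood out in other genes of the run as well. Solyc09g011540.2 held 32.16, 245.47 and 22.47 TPM in wild type against 19.23, 17.07 and 10.3 TPM in the mutant. Solyc09g011510.2 held 103.42, 469.96 and 94.83 TPM in wild type and 174.59, 194.75 and 126.69 TPM in the mutant. Neither passed (limma adjusted p = 0.219 and 0.978).

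**Figure D3:**
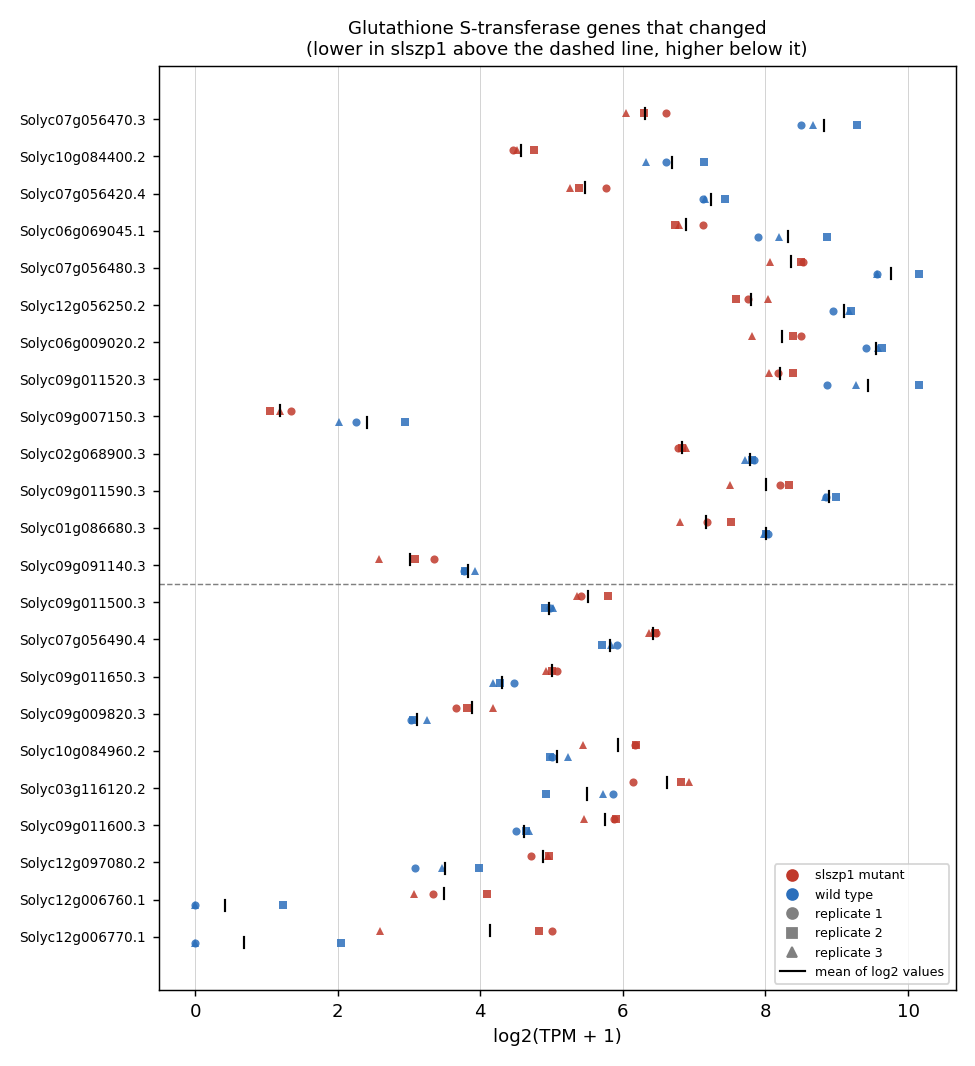
Level in log2(TPM + 1) of the 23 GST genes that rose or fell, each point a library and the black tick the mean of the log2 values of 3 libraries per genotype. The 13 genes that fell stand above the dashed line and the 10 that rose below it. Red and blue points do not overlap in any of the 23 genes, which are shown because they passed. Of all tested genes, 38.5% did not overlap.

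Away from these runs, some GST genes on other chromosomes fell, with wild type means 2.44 to 4.59-fold those of the mutant. Other abundant members outside the runs did not pass. Among them were Solyc12g036560.1, rank 10 in abundance, and Solyc08g080900.3, rank 19, with limma adjusted p of 0.641 and 0.617. Solyc10g084400.2, a GST family protein gene, held 21.07, 25.86 and 21.77 TPM in slszp1 and 96.56, 139.8 and 79.02 TPM in wild type, which gives a change of -2.12 (SE 0.21, limma adjusted p = 0.000416). Solyc12g056250.2 held 215.16, 191.53 and 262.05 TPM in slszp1 and 490.93, 588.17 and 576.17 TPM in wild type, which gives a change of -1.31 (SE 0.17, limma adjusted p = 0.00146). In both genes each mutant library was below each wild type library, and Solyc12g056250.2 follows 2 glutathione peroxidase genes in the table that did not pass. Solyc06g009020.2, rank 4 in abundance, held 361.49, 333.5 and 224.09 TPM in slszp1 and 682.45, 795.51 and 764.44 TPM in wild type, which gives a change of -1.31 (SE 0.21, limma adjusted p = 0.00331). Solyc06g069045.1 held 137.93, 104.85 and 109.87 TPM in slszp1 and 236.05, 463.25 and 291.9 TPM in wild type, which gives a change of -1.44 (SE 0.25, limma adjusted p = 0.00552). The genotypes did not overlap in either. The row before the last gene is the gene described as GST T4, Solyc06g069040.3, which was listed at 0 in 5 libraries and at 0.27 TPM in wild type replicate 1. How reads were divided between these neighbours cannot be read from TPM.

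Solyc06g009040.3 carries the same database match as Solyc06g009020.2 and lies close to it, but behaved differently. It held 11.69, 17.77 and 13.56 TPM in slszp1 and 217.72, 31.52 and 15.58 TPM in wild type, and did not pass (limma adjusted p = 0.270). Wild type replicate 1 alone was high, and wild type replicate 3 lay within the mutant range.

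Further members fell by about 2-fold or less, or at low levels. Solyc02g068900.3 held 107.97, 113.05 and 116.65 TPM in slszp1 and 228.34, 223.66 and 208.89 TPM in wild type, which gives a change of -0.96 (SE 0.13, limma adjusted p = 0.00179). Its libraries were tight within each genotype and did not overlap. Solyc01g086680.3, described as GST T1, held 143.59, 182.97 and 110.24 TPM in slszp1 and 260.76, 257.19 and 250.31 TPM in wild type, which gives a change of -0.84 (SE 0.19, limma adjusted p = 0.0186; 0.0582 and 0.0581 without mutant or wild type replicate 1). It was the only one of the 5 tested genes described as T1, T2, T3 or T5 that passed. That is 20%, near the 19.2% of all tested genes that changed. The descriptions do not spell out the letter T. Solyc09g007150.3 held 1.54, 1.07 and 1.28 TPM in slszp1 and 3.76, 6.66 and 3.07 TPM in wild type, which gives a change of -1.21 (SE 0.27, limma adjusted p = 0.0159; 0.0546 without mutant replicate 2). Solyc09g091140.3 held 9.25, 7.49 and 5 TPM against 12.69, 12.73 and 14.19 TPM, a change of -0.82 (SE 0.22, limma adjusted p = 0.0328). Neither overlapped between genotypes. The call of Solyc09g091140.3 was lost without mutant replicate 2 or 3 (0.0744 and 0.0616), without wild type replicate 1, 2 or 3 (0.0822, 0.0516 and 0.0935), under median centring (0.0586) and under quantile normalization (0.0594), all limma adjusted p.

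Among the genes that rose were 2 of the 4 models annotated as zeta 1, and only these 2 were tested. Of all tested genes 8.71% rose. All 4 models were at or near 0 in wild type. The 4 models carry the same partial match to an Arabidopsis zeta 1 gene and sit close together on chromosome 12. Solyc12g006760.1 held 9.06, 16.04 and 7.38 TPM in slszp1 and 0, 1.36 and 0 TPM in wild type, which gives a change of 3.08 (SE 0.40, limma adjusted p = 0.00167). Solyc12g006770.1 held 31.12, 27.22 and 5.05 TPM in slszp1 and 0, 3.15 and 0 TPM in wild type, which gives a change of 3.46 (SE 0.85, limma adjusted p = 0.0391). In both the genotypes did not overlap and wild type replicate 2 was the only wild type library above 0. The call of Solyc12g006770.1 was lost without mutant replicate 1 or 2 (limma adjusted p = 0.120 and 0.130), without wild type replicate 1 or 3 (0.135 and 0.121) and with a pseudocount of 0.1 (0.0629). The other two were too low to test. Solyc12g006750.1 held 4.24, 4.73 and 0 TPM in the mutant, Solyc12g006730.1 held 5.35, 0 and 0 TPM, and both were at 0 in all wild type libraries. Whether these partly matched models encode whole zeta enzymes was not tested, and a listed 0 can be a failed estimate. Both tested models met the expression minimum through the 3 mutant libraries, where they are high, so their entry into the test favoured a difference.

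The other rises outside the runs were of 1.81 to 2.64-fold on the means. Solyc12g097080.2 held 25.27, 30.18 and 29.89 TPM in slszp1 and 7.46, 14.86 and 10.02 TPM in wild type, which gives a change of 1.37 (SE 0.23, limma adjusted p = 0.00477). It was about equally high in the 3 mutant libraries. Its database match is shared with Solyc09g091140.3, which fell, and with Solyc09g091130.3, which did not pass at 19.8 ± 0.0700 and 25.0 ± 15.4 TPM. Solyc03g116120.2 held 69.3, 111.5 and 120.27 TPM in slszp1 and 56.89, 29.33 and 51.62 TPM in wild type, which gives a change of 1.13 (SE 0.30, limma adjusted p = 0.0343). This call was lost without mutant replicate 2 or 3 (limma adjusted p = 0.109 and 0.121) or wild type replicate 3 (0.0636). Solyc10g084960.2 held 71.3, 72.05 and 42.32 TPM against 31.27, 30.44 and 36.61 TPM, a change of 0.86 (SE 0.22, limma adjusted p = 0.0264). Mutant replicate 3 was the nearest to wild type, and the call was lost without mutant replicate 1 or 2 (limma adjusted p = 0.0909 and 0.0938), without wild type replicate 1 or 2 (0.0782 and 0.0543) and under median centring (0.0591). Solyc09g009820.3, a GST domain-containing protein gene, held 11.61, 13.07 and 17.04 TPM against 7.14, 7.35 and 8.57 TPM, a change of 0.77 (SE 0.19, limma adjusted p = 0.0238; 0.0624 and 0.0578 without mutant replicate 2 or 3, and 0.0824 without wild type replicate 1).

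The most abundant member of all, Solyc09g074850.3, did not pass. It held 4952.01, 5518.29 and 5212.28 TPM in slszp1 and 4091.36, 2493.58 and 3754.43 TPM in wild type, which gives a change of 0.63 (SE 0.23, limma adjusted p = 0.0908). Every mutant library was above every wild type library, wild type replicate 2 was the lowest, and under quantile normalization it passed with a limma adjusted p of 0.0429. The microsomal GST Solyc02g081430.3 did not pass, at 249 ± 31.2 TPM in slszp1 and 296 ± 22.3 TPM in wild type, and its neighbour Solyc02g081440.3, a partly matched microsomal model, had 2.23 ± 1.08 and 1.59 ± 0.735 TPM. The 3 models described as tau class were listed at 0 in every library and are all marked low quality. Most members carry no class in their description, so class counts beyond these were not made.

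The summed GST level, which is set by few abundant genes, was 11833, 12873 and 11100 TPM in slszp1 against 13141, 14664 and 12948 TPM in wild type. That is 1.18% to 1.34% of all listed transcripts in the mutant and 1.33% to 1.52% in wild type. Without Solyc09g074850.3 the sums were 6881, 7354 and 5888 TPM in slszp1 against 9049, 12171 and 9193 TPM in wild type, and the genotypes stood further apart. The libraries of a genotype did not agree equally on GST genes. Wild type replicate 2 was at least 2-fold above both other wild type libraries, on TPM + 1, in 6 of 61 tested members (9.84%), where this held for 2.82% of all tested genes. Besides the 4 such genes named above these were Solyc08g062570.1, at 2.36, 22.86 and 3.82 TPM in wild type and 0.49, 0.82 and 0.76 TPM in the mutant (limma adjusted p = 0.0862), and Solyc09g091130.3. Solyc08g062570.1 is a partly matched model that met the expression minimum only through wild type. Mutant replicate 3 was the lowest mutant library in 59.0% of tested members and in 22.0% of all tested genes. The part of these libraries in the results was not tested beyond leaving each out.

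**Figure D4:**
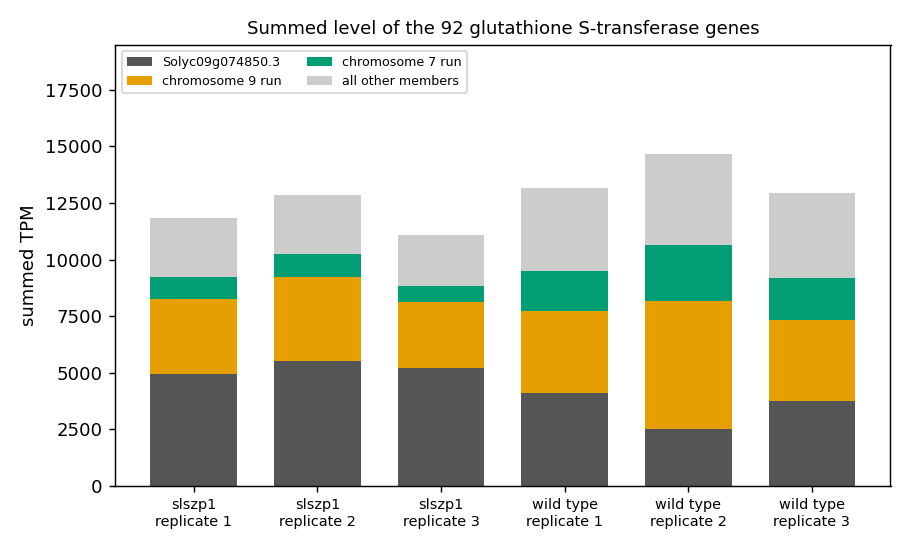
Summed TPM of the 92 GST genes in each library, split into the most abundant gene Solyc09g074850.3, the runs on chromosome 9 and chromosome 7, and all other members. The chromosome 7 part is 708 to 997 TPM in slszp1 against 1789 to 2475 TPM in wild type, while the part of Solyc09g074850.3 is larger in the mutant and smallest in wild type replicate 2.

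For the 2 changed members with the smallest p in each direction, the members most like them across libraries were not always their neighbours in the table. Over the 6 libraries, which share the genotype difference, the tested member most like Solyc07g056470.3 in log2 values was its run mate Solyc07g056420.4 (Pearson r = 0.995), followed by Solyc07g056480.3 (r = 0.988) and Solyc10g084400.2 on another chromosome (r = 0.980). For Solyc07g056420.4 the next after Solyc07g056470.3 were Solyc06g009020.2 (r = 0.977) and Solyc07g056480.3 (r = 0.976). Among genes that rose, Solyc12g006760.1 was most like Solyc12g097080.2 (r = 0.969), Solyc09g011600.3 (r = 0.957) and Solyc01g081270.2 (r = 0.957), which did not pass. Solyc09g011600.3 was most like Solyc12g006760.1 (r = 0.957), Solyc10g084960.2 (r = 0.954) and Solyc07g056490.4 (r = 0.953). With 3 libraries per genotype these values mostly restate the genotype difference. Genes with the same database match did not always share a direction. Of the 15 matches that several members share, 2 held calls in both directions. Most of the 15 held at most 1 call and so could not hold both. Of the 7 genes matched to 1 potato GST, 5 were tested, 2 rose and 1 fell, and of 3 that share a castor bean match, all tested, 1 rose and 1 fell. Of all tested genes 8.71% rose and 10.5% fell. The calls of the potato match and the fall of the castor bean match were each lost when certain single libraries were left out. The rise of the castor bean match held in every setting. In the other 13 matches, the calls went in 1 direction or there were none. In the zeta 1 match both tested genes rose, but both met the expression minimum through the mutant, where they are high.

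Genes for making and reducing glutathione, the substrate of GSTs, were lower in the mutant. The list of other glutathione genes held 86 genes, of which 47 were tested, 11 fell and 3 rose, or 23.4% and 6.38% where 10.5% and 8.71% of all tested genes did. Its median change was -0.25, against -0.0005 over all tested genes. The gene of the first step, gamma-glutamylcysteine synthetase 1 (Solyc08g081010.3), held 83.69, 90.34 and 108.28 TPM in slszp1 and 252.59, 201.23 and 261.46 TPM in wild type, which gives a change of -1.33 (SE 0.17, limma adjusted p = 0.00123). That of the second step, glutathione synthetase 2 (Solyc01g098610.3), held 22.82, 19.62 and 23.94 TPM in slszp1 and 66.57, 64.08 and 59.76 TPM in wild type, which gives a change of -1.48 (SE 0.14, limma adjusted p = 0.000306). Each was the sole gene of its kind in the list, and neither overlapped between genotypes. Glutathione reductase, which regenerates the thiol form, fell at Solyc09g091840.3, with 254.51, 282.96 and 259.37 TPM in slszp1 and 509.72, 403.73 and 549.52 TPM in wild type, which gives a change of -0.86 (SE 0.17, limma adjusted p = 0.00860). The chloroplastic reductase Solyc09g065900.3 had 20.0 ± 2.81 and 31.0 ± 4.85 TPM and fell with a limma adjusted p of 0.0405. Its call was lost without mutant replicate 1 or 2 (0.138 and 0.116) or wild type replicate 1, 2 or 3 (0.0637, 0.0814 and 0.0762), and without limma's options (0.0576). Of 8 tested glutathione peroxidase genes, which reduce peroxides, 0 passed, where 19.2% of all tested genes changed. Whether this differs from the other kinds was not tested. The most abundant, Solyc08g080940.3, had 1452 ± 197 TPM in slszp1 and 2035 ± 91.4 TPM in wild type (limma adjusted p = 0.0885). Every mutant library of this gene was below every wild type library. The same held for some of the other tested peroxidase genes, while the rest overlapped. Of all tested genes, 38.5% did not overlap in either direction.

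Genes that break glutathione down, use it or move its conjugates gave mixed counts. Gamma-glutamylcyclotransferases, which degrade glutathione or its dipeptides, fell at Solyc11g012910.2, with 8.22 ± 0.601 TPM in slszp1 and 19.6 ± 3.27 TPM in wild type, which gives a change of -1.15 (SE 0.17, limma adjusted p = 0.00256). Solyc08g006150.3 fell as well, with 28.7 ± 0.612 and 42.1 ± 1.13 TPM (limma adjusted p = 0.0201; 0.0703 and 0.0811 without mutant replicates 1 and 2, 0.0705 and 0.0506 without wild type replicates 1 and 3). A further tested cyclotransferase, Solyc12g096320.2, overlapped between genotypes at 4.37 ± 1.74 and 6.37 ± 4.49 TPM and did not pass (limma adjusted p = 0.620). Among 14 tested genes of the glyoxalase family, whose core enzymes remove methylglyoxal through glutathione, 2 rose and 3 fell. Of all tested genes 8.71% rose and 10.5% fell. Solyc03g116530.3 fell from 212 ± 47.5 TPM in wild type to 67.0 ± 15.6 TPM, and the most abundant one, Solyc01g103590.3, rose from 420 ± 36.5 to 750 ± 63.2 TPM (limma adjusted p = 0.00152 and 0.00750). The low-quality model Solyc02g066810.1, partly matched to this family, held 6.87, 5 and 16.64 TPM in slszp1 and was at 0 in all wild type libraries. It met the expression minimum only through the mutant, so its call is partly set by that filter. The other two that fell, Solyc02g080630.3 and Solyc09g082120.3, had limma adjusted p of 0.0377 and 0.0400. The first was lost without mutant replicates 1, 2 and 3 (0.0781, 0.132 and 0.0868) and wild type replicates 1 and 2 (0.119 and 0.0686), and under median centring (0.0512), the second without mutant replicates 1, 2 and 3 (0.149, 0.0949 and 0.0708) and wild type replicates 1 and 3 (0.132 and 0.109).

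Among transport genes of the list, 1 of 6 multidrug resistance ABC genes and 2 of 9 oligopeptide transporters changed, beside 19.2% of all tested genes. Of 6 tested multidrug resistance ABC transporter genes, a group that includes pumps of glutathione conjugates, Solyc08g006880.3 alone passed. It held 45.79, 43.17 and 60.85 TPM in slszp1 and 129.59, 114.26 and 174.37 TPM in wild type, which gives a change of -1.46 (SE 0.20, limma adjusted p = 0.00184) without overlap. Among 9 tested oligopeptide transporters, a family with members that carry glutathione or metal chelates, Solyc11g012700.2 rose, with 20.01, 19.47 and 18.6 TPM in slszp1 and 3.11, 3.29 and 2.61 TPM in wild type, which gives a change of 2.35 (SE 0.17, limma adjusted p = 6.83e-05). Solyc02g081570.3 fell, with 0.28, 0.07 and 0.24 TPM in slszp1 and 3.53, 1.57 and 3.06 TPM in wild type (limma adjusted p = 0.00410), and met the expression minimum only through wild type. The tested phytochelatin synthase gene, Solyc09g072620.3, which makes metal-binding peptides from glutathione, did not pass at 17.0 ± 4.26 and 12.7 ± 2.06 TPM. Nor did the most abundant genes of 3 further kinds, S-formylglutathione hydrolase (Solyc04g016360.3), gamma-glutamyltranspeptidase (Solyc12g008640.2) and, among oligopeptide transporters, Solyc03g031920.3, with limma adjusted p of 0.533, 0.440 and 0.395.

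**Figure D5:**
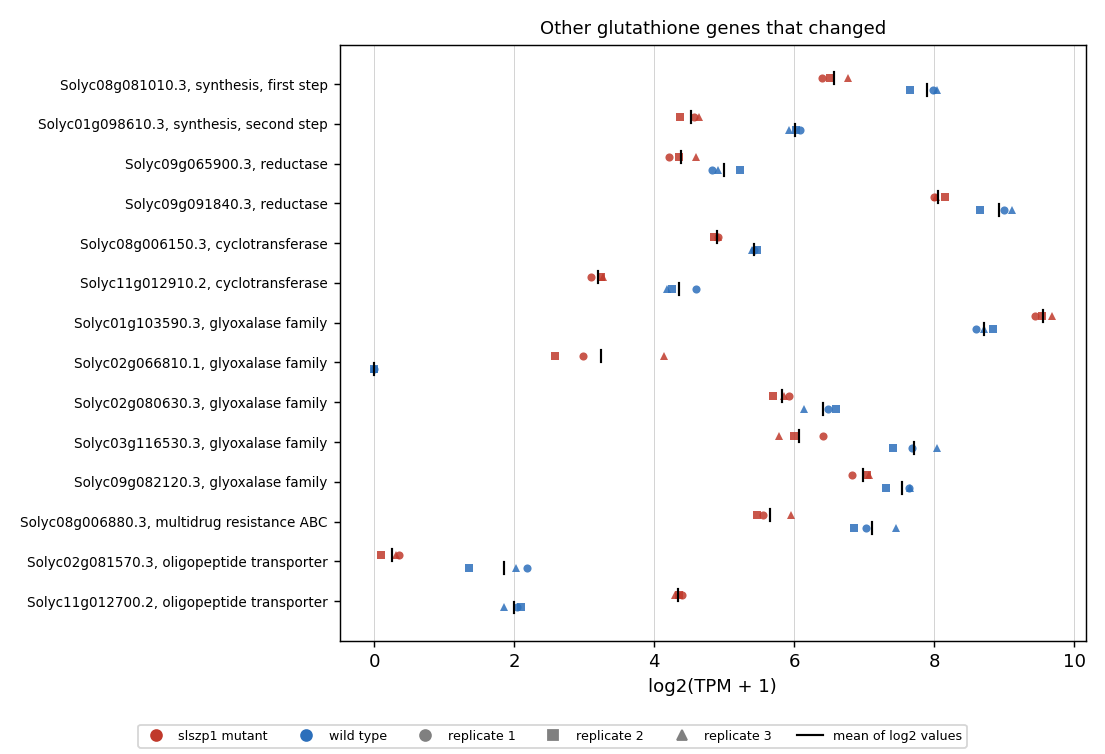
Level in log2(TPM + 1) of the 14 other glutathione genes that rose or fell, labelled by their kind, each point a library and the black tick the mean of the log2 values of 3 libraries per genotype. Among these genes, shown because they passed, those of synthesis, reductase and cyclotransferase lie lower in the mutant, while 2 glyoxalase family genes and 1 oligopeptide transporter lie higher.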

How the data were processed

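Total RNA of roots was sequenced in 6 samples, 3 per genotype, grouped by their labels. The authors deposited 1 table of TPM values per gene and library, made by scaling to transcript length and library total. This unit is an inference from column sums of 940694 to 974316, since the header names none. Per the submitters' processing notes the tools were Cufflinks, HISAT2, StringTie and TopHat2, with no roles or versions; the genome assembly was not given in the sources used here. Depth cannot be recovered from TPM. Gene names and classes come from the table, chromosomes from the identifiers; 0 GST identifiers matched the RefSeq gene table, and no sequences are shown.

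Values were tested as log2(TPM + 1) by limma 3.58.1 (trend and robust options, statmod 1.5.0) in R 4.3.3 on all 17702 genes that reached 1 TPM in 3 or more libraries, with Benjamini-Hochberg adjustment. Members and lists were chosen with earlier results of these data known. Named were all members that changed, the 5 most abundant and the most abundant of each class, and likewise for the other glutathione genes; Solyc06g009040.3, Solyc06g069040.3, Solyc08g062570.1 and other members that did not pass were chosen after their values were seen. Labels do not tell whether libraries came from separate plants, so p-values measure the spread between these samples. Alternatives were another pseudocount or filter, quantile normalization, median centring, the replicate block, limma without its options, a 2-fold minimum and each library left out. The split by abundance was chosen after the data were seen.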

Additional observations from a re-analysis of the deposited data

How the results depend on the processing

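The 13 GST genes that fell numbered 10 to 14 and the 10 that rose 7 to 11 under the other pseudocount, filters, scalings, limma options and the replicate block. Called under every such setting and without any single library were 8 of the 13 and 3 of the 10. Without single libraries, 10 to 12 GST genes fell and 4 to 9 rose (5 when mutant replicate 1 was left out, 4 for mutant replicate 2 and 6 for wild type replicate 1). Of the other glutathione genes 8 to 12 fell and 3 rose under those settings, and without single libraries 7 to 11 fell (7 without mutant replicate 1 or 2 or wild type replicate 1) and 3 rose each time. Over all genes 994 to 1764 rose and 1131 to 2042 fell (994 and 995 rose without wild type replicate 1 and mutant replicate 3, 1131 and 1240 fell without wild type replicate 1 and mutant replicate 2). With a change of at least 2-fold, 5 GST genes rose and 9 fell, 6 other glutathione genes fell, and 911 and 1107 of all genes rose and fell. Without low-quality or partly matched models, 8 GST genes rose and 12 fell. With the replicate block 7 GST genes rose and 12 fell, and 1276 and 1499 of all genes. Of the 48 named genes, calls of 9 were lost without the filter, 7 with the block, 5 under median centring, 4 without limma's options and 1 each with a pseudocount of 0.1 and quantile normalization, which gained 1. The GST genes among the 7 were Solyc03g116120.2, Solyc09g011500.3, Solyc09g091140.3 and Solyc10g084960.2, with limma adjusted p of 0.0735, 0.0742, 0.0675 and 0.0657; the others were Solyc09g065900.3, Solyc02g080630.3 and Solyc09g082120.3, with 0.0563, 0.0657 and 0.0684. Lost without the filter were these 7, Solyc09g011520.3 and Solyc09g011590.3 (limma adjusted p of 0.0524 to 0.0656), and lost without limma's options were Solyc09g011500.3, Solyc09g065900.3, Solyc02g080630.3 and Solyc09g082120.3 (0.0575 to 0.0661). Deviations from the group means correlated at -0.048, -0.074 and 0.108 between same-numbered libraries, so the numbers were not taken to pair them. Without single libraries the change of Solyc09g011630.3 was -0.29 to 0.16 and that of Solyc09g011640.4 -0.38 to 0.17. The former turned to 0.16 without wild type replicate 2, and the latter to 0.04 and 0.17 without wild type replicates 1 and 3; neither passed limma in any setting, and the cause was not tested. Depth is unknown, so what it limits could not be stated.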
